A study of Homo sapiens with 38 samples.

Results

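The mitochondrially encoded genes are the genes of the circular mitochondrial chromosome, chosen here as every row of the deposited expression table whose symbol starts with MT-. They number 37 of the 58219 genes in the table. There are 13 protein-coding genes, 2 ribosomal RNA (rRNA) genes and 22 transfer RNA (tRNA) genes. Of these, 32 reached 1 TPM, a unit of transcript abundance, in at least 2 libraries and were tested, namely all 13 protein-coding genes, both rRNA genes and 17 tRNA genes. The other 5 tRNA genes did not reach that level.

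The study followed neural induction of H9, an established human embryonic stem cell line of wild type genotype, to learn which regional identity graded WNT signalling gives. Poly(A) RNA was sequenced in 38 libraries, in 19 groups of 2 that the design text calls biological replicates. Whether these were separate differentiations is not stated, so the p-values measure the spread between such pairs. That spread was estimated for each gene from all 19 pairs together. Undifferentiated cells form the day 0 group (D0 ESC). At day 4 (D4) and day 8 (D8) the cells are neural progenitor cultures in 9 conditions. IWP2, an inhibitor of WNT secretion, was used at 2.0 µM. CT, a WNT activator whose abbreviation the labels do not expand, was used at 0.0 (untreated), at 0.4, at 0.8, and at 1.0, 2.0, 3.0 and 4.0 µM. In CT4.0RA, retinoic acid (RA) at 1.0 µM was added to CT at 4.0 µM. All groups derive from the same line, so line-to-line variation was not sampled.

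The mitochondrial chromosome is transcribed from both strands into long RNAs that each span many genes. These are cut at the tRNAs that lie between most of the other genes. Most of the mRNAs, though not all, and the rRNAs then receive short poly(A) tails. Genes on 1 strand can thus differ in level through processing and decay as well as through transcription. The proteins are core subunits of respiratory complexes I, III and IV and of ATP synthase (complex V), whose remaining subunits are nuclear genes. Pluripotent cells are known for a strong reliance on glycolysis, and neural differentiation for a growing use of respiration.

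Several of these genes abut or overlap, which limits how reads can be divided between them. The following sequences show the places that matter below. They come from the GENCODE release 29 transcripts on hg38 and are written 5′ to 3′ on each gene's own strand. Capitals mark bases that belong to both genes of an overlapping pair. MT-ATP8 and MT-ATP6 share 46 bases (chrM:8527-8572) on the plus strand, and MT-ND4L and MT-ND4 share 7 (chrM:10760-10766). MT-ND5 (plus strand) and MT-ND6 (minus strand) end side by side, so the last 30 bases of each are shown, with no capitals because no base is shared. MT-TP and MT-TV are shown whole, as the tRNA gene of highest level and as a plus-strand tRNA gene of nearly the same length.
MT-ATP8, chrM:8497-8572, plus strand: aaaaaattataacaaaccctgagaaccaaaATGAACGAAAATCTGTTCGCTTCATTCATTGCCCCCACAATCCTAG
MT-ATP6, chrM:8527-8602, plus strand: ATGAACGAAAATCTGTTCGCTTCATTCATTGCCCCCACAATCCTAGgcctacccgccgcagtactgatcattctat
MT-ND4L, chrM:10730-10766, plus strand: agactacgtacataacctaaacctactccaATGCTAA
MT-ND4, chrM:10760-10796, plus strand: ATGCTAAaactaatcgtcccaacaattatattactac
MT-ND5, chrM:14119-14148, plus strand: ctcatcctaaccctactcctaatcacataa
MT-ND6, chrM:14149-14178, minus strand: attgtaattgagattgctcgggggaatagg
MT-TP, chrM:15956-16023, minus strand: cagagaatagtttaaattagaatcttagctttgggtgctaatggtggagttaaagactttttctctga
MT-TV, chrM:1602-1670, plus strand: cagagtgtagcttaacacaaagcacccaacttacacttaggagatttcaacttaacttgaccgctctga

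TPM corrects a count for gene length and scales each library to a fixed total, so it allows levels to be compared between genes but keeps no sequencing depth, so how many reads stand behind a value is not known here. Because of the fixed total, a large rise of 1 gene class lowers all other values. Genes for cytosolic ribosomal proteins, 87 in the table, held between 17.4% (D8 IWP2) and 38.7% (D8 CT4.0RA) of TPM by group, so shares are also given without them. The stem cell label matched its markers: 6 pluripotency genes summed to 3507 and 3565 TPM in the D0 ESC libraries and to between 94.7 and 208 TPM at day 4. The 7 neural progenitor markers summed to 1494 TPM in D8 CT0.0 but to 268 in D8 CT4.0, near the 277 and 305 TPM of the D0 ESC libraries. PAX6, an early neural regulator among them, was at 1.54 TPM in D8 CT4.0 against 110.5 in D8 CT0.0. In bulk RNA, fewer cells of a type and less RNA per cell cannot be told apart.

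Mitochondrial mRNA was abundant in every library, and its share differed between days and conditions. The 13 mRNA genes took 8.94% and 10.9% of TPM in the D0 ESC libraries. At day 4 the 18 libraries ranged from 6.44% to 9.33% with a median of 6.91%, and at day 8 from 4.94% to 8.01% with a median of 6.37%. The conditions were ordered differently on the 2 days. At day 4, IWP2 to CT2.0 lay between 6.52% and 6.95%, close to one another and within the spread of the CT2.0 pair (6.49% and 7.42%). CT3.0 stood at 7.48% ± 0.187 (SD, n = 2), CT4.0 at 8.41% ± 0.268 and CT4.0RA at 9.21% ± 0.162. At day 8 the same 3 conditions were the lowest, at 5.68% ± 0.217, 5.78% ± 0.341 and 5.0% ± 0.0839, and IWP2 (7.88% ± 0.179) and CT0.0 (7.5% ± 0.292) were the highest. CT3.0 and CT4.0 did not differ beyond their spread at day 8.

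That order depends in part on the total against which the share is taken. With the ribosomal protein genes left out of the total, the mRNA share at day 4 still ran from 8.20% in IWP2 to 13.3% in CT4.0RA, a ratio of 1.62 against 1.41 with them. At day 8 the ratio of highest to lowest group was 1.23 without them against 1.58 with them, and the lowest group was then CT0.4 at 7.78%, with CT4.0RA at 8.14%. The 2 rRNA genes together took 0.554% and 0.781% of TPM in D0 ESC, between 0.283% (IWP2) and 0.587% (CT4.0RA) by group at day 4, and between 0.382% (CT0.4) and 0.815% (CT4.0) at day 8. These rRNA values describe only what a poly(A) library retained.

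**Figure D1:**
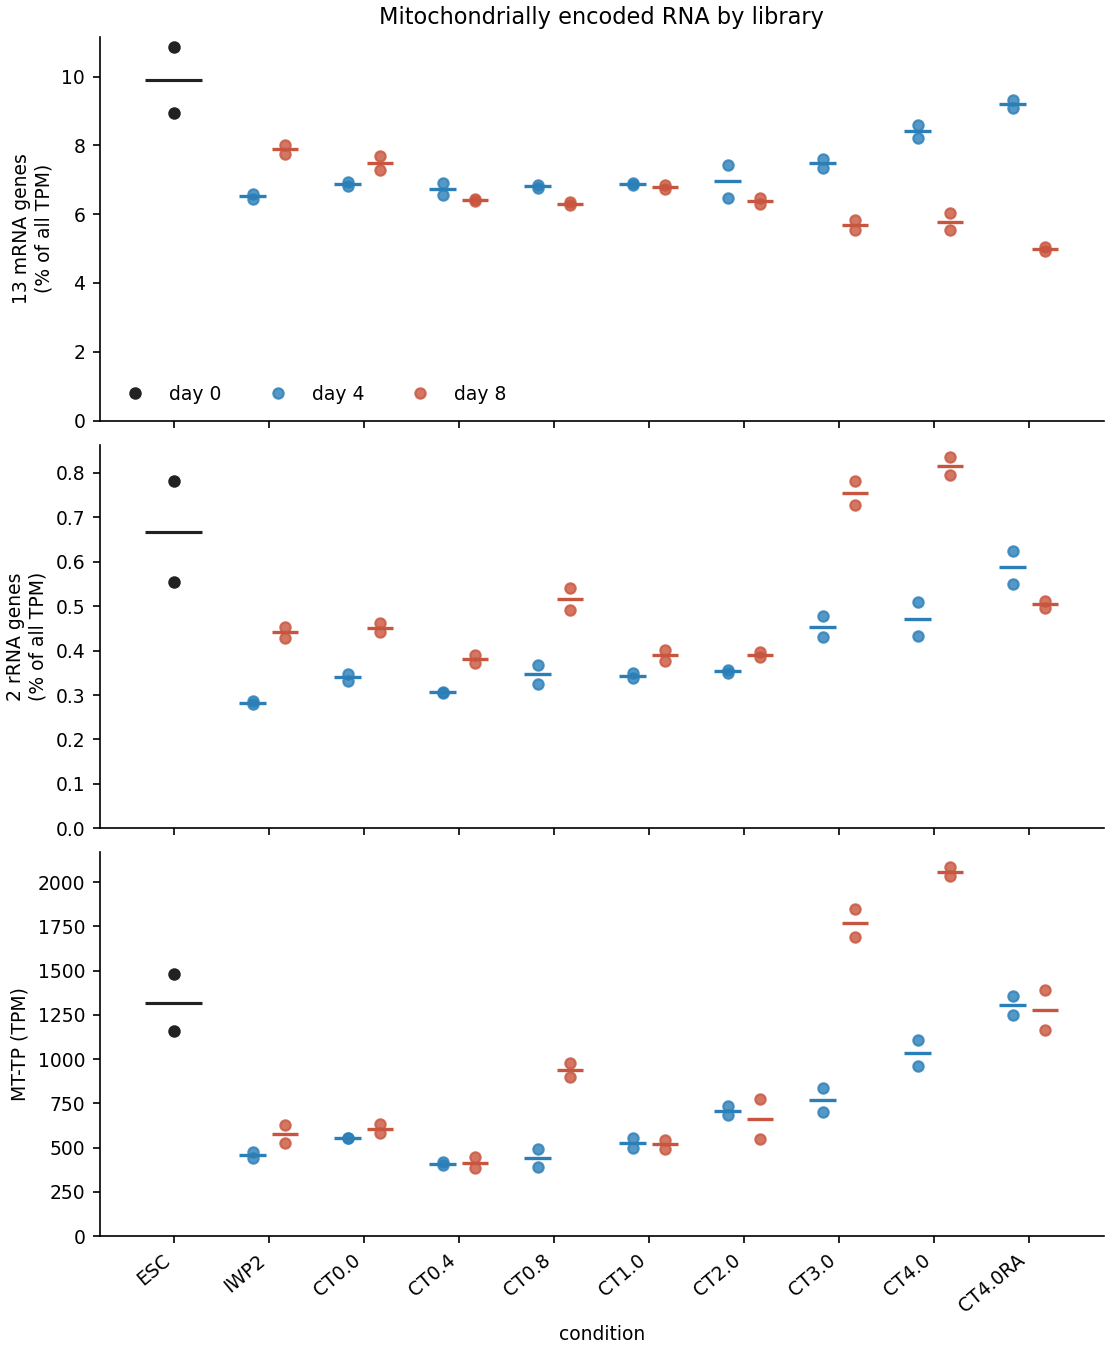
Share of all TPM in the 13 mitochondrial mRNA genes (top, %), in the 2 rRNA genes (middle, %), and TPM of the tRNA gene MT-TP (bottom), by culture condition. Points are libraries and short lines are means of 2 libraries. The mRNA share of CT4.0RA is the highest of day 4 (9.21%) and the lowest of day 8 (5.0%), while rRNA and MT-TP are highest in D8 CT4.0 (0.815% and 2035 and 2084 TPM).

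Levels differed widely among the mRNAs of the same strand. Averaged over groups, MT-CO1, MT-CO2 and MT-CO3, which encode the catalytic core of complex IV (cytochrome c oxidase), made up 20.6%, 15.5% and 14.9% of the TPM of the 13 genes. MT-ND4L, a small complex I subunit, made up 14.9%, although its overlapping neighbour MT-ND4 made up 3.38%. The ratio of MT-ND4L to MT-ND4 lay between 3.25 and 5.24 in all 38 libraries. The other complex I genes ranged from 6.19% (MT-ND3) to 2.64% (MT-ND5). MT-ATP6, the proton channel subunit of complex V, made up 5.08%, and its overlapping partner MT-ATP8 2.09%. MT-CYB, cytochrome b and the only mitochondrially encoded subunit of complex III, made up 2.90%. As a ratio of the highest to the lowest group, the fractions that varied most were those of MT-ND6, from 1.66% in D4 CT4.0RA to 4.13% in D8 CT3.0, and of MT-ND5 (chrM:12337-14148), from 1.46% in D4 CT4.0RA to 3.40% in D8 CT4.0. In percentage points those of MT-CO1 (15.4% to 24.0%) and MT-ND4L (11.9% to 18.7%) ranged more widely. The division of reads within overlapping pairs was made by the authors' quantification. The reads were 2 × 100 or 2 × 150 bases and the labels do not say which library had which, which bears most on MT-ND4L, MT-ATP8 and other short genes and was not tested.

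**Figure D2:**
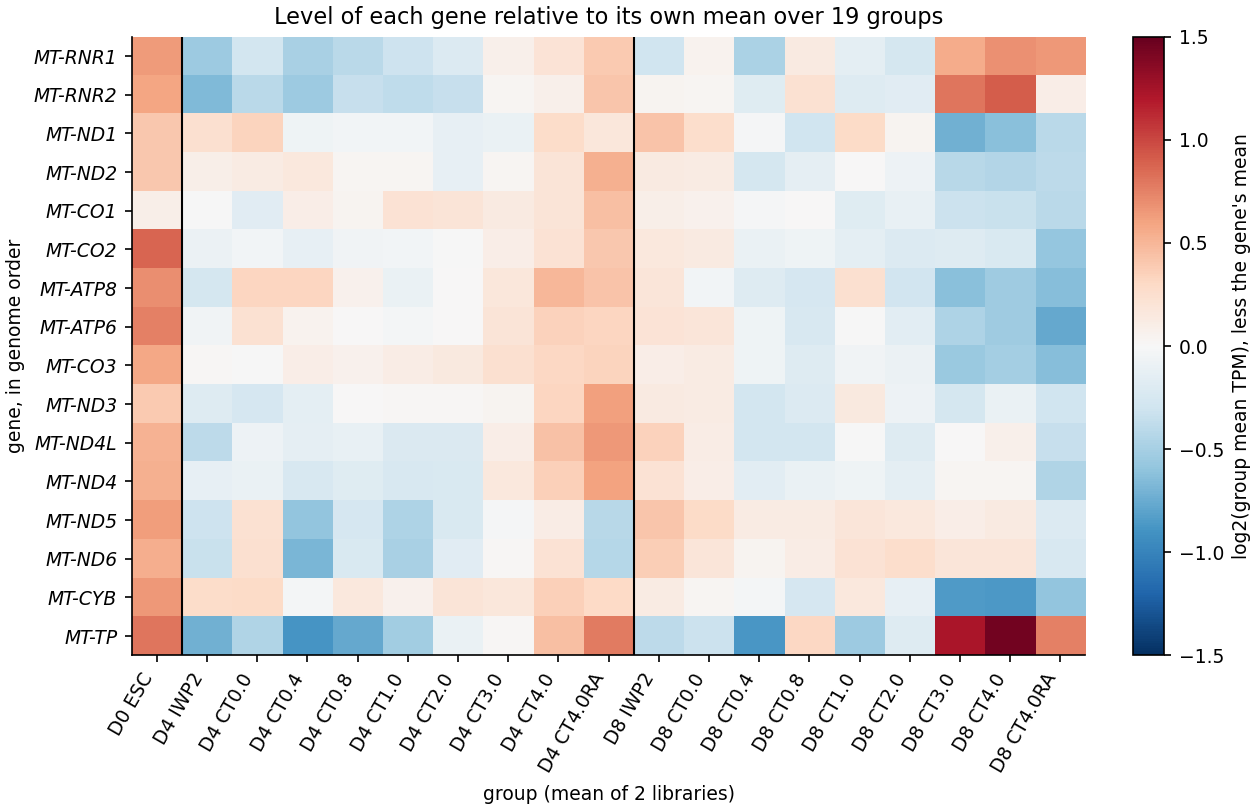
Level of 13 mRNA genes, 2 rRNA genes and MT-TP in genome order (rows) in 19 groups (columns), as log2 of the group mean TPM less the gene's own mean over groups. Red is above and blue below that mean. MT-RNR2 and MT-TP stand out in D8 CT3.0 and D8 CT4.0, where MT-ND1 and MT-CYB are low, and MT-ND5 and MT-ND6 share a pattern that differs from their neighbours at day 4.

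Between day 0 and day 4 most mitochondrial mRNAs fell relative to the rest of the transcriptome. Differences were tested on log2(TPM + 1) with limma over all libraries, and calls are those with an adjusted p under 0.05 (Benjamini-Hochberg, over the 28221 tested genes). Differences on this scale understate the change of low genes. Against D0 ESC, the mean of the 9 day 4 groups was lower for 12 of the 13 mRNAs and higher for none, where 22.2% of all tested genes were called lower and 39.8% in either direction. The median log2 difference of the 13 was -0.45, against 0.05 over all tested genes. The complex I genes fell by between 0.27 (MT-ND2) and 0.84 (MT-ND5) on the log2 scale. MT-ND5 stood at 2672 and 2822 TPM in D0 ESC and at 1148 to 2158 TPM at day 4 (median 1456), so that every day 4 library lay below both day 0 libraries (log2 difference -0.84 ± 0.05 SE, limma adjusted p = 2.9e-12). MT-ND6, its neighbour on the other strand and likewise a complex I subunit, fell by 0.76 (± 0.06, adjusted p = 1.3e-09). MT-CYB fell by 0.44 (± 0.07, adjusted p = 2.0e-05). Of complex V, MT-ATP6 fell by 0.62 (± 0.07, adjusted p = 3.7e-07) and MT-ATP8 by 0.45 (± 0.15, adjusted p = 0.0188).

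The 3 complex IV genes, which lie near one another on the same strand, did not move alike at this step. MT-CO2 stood at 17996 and 21339 TPM in D0 ESC and at 9688 to 14534 TPM at day 4 (median 10606), with no overlap (log2 difference -0.83 ± 0.06, limma adjusted p = 4.0e-11). MT-CO3 fell by 0.43 (± 0.05, adjusted p = 4.5e-07). MT-CO1 stood at 15254 and 14896 TPM in D0 ESC and at 12287 to 19957 TPM at day 4 (median 15343), so that the groups overlapped (0.04 ± 0.04, adjusted p = 0.547). The ratio of MT-CO2 to MT-CO1, which no scaling of libraries can move, was 1.18 and 1.43 in the D0 ESC libraries and between 0.621 and 0.834 in the other 36. It is given as a description without a test. It did not return to the day 0 level in any day 8 library, where it lay between 0.655 and 0.833.

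The rRNAs and MT-TP were also lower at day 4. MT-RNR1, the small-subunit rRNA of the mitochondrial ribosome, stood at 940 and 908 TPM in D0 ESC and at 405 to 839 TPM at day 4 (log2 difference -0.81 ± 0.08, limma adjusted p = 3.1e-08). MT-RNR2, the large-subunit rRNA, fell by 0.80 (± 0.09, adjusted p = 5.8e-08), but its 2 day 0 values were far apart, at 6875 and 4637 TPM, and the lower lay within the day 4 range (2397 to 5398). MT-TP, the proline tRNA gene, was at 1482 and 1157 TPM in D0 ESC and at 393 to 1358 TPM at day 4 (median 557, log2 difference -1.03 ± 0.11, adjusted p = 4.5e-08). The groups overlapped, since the D4 CT4.0RA libraries (1249 and 1358 TPM) lay above the lower day 0 library.

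The pair of day 0 libraries limits this comparison. The SEs and p-values rest on a spread that all groups share for each gene. For some genes the D0 ESC pair was wider apart than every other pair, at 1.48 times for MT-RNR2 and 1.29 times for MT-CYB. For such genes the SEs and p-values against day 0 look firmer than its 2 libraries allow. It was not the widest pair for others, MT-CO1 and MT-ND5 among them. Replicate 2 of D0 ESC was the higher for 11 of the 13 mRNAs, by up to 2.00 times for MT-ATP8 (1559 and 3118 TPM). Without it, 7 mRNAs were called lower, MT-ND1, MT-ND2, MT-ND3 and MT-ND4L lost their calls at -0.13, -0.08, -0.11 and -0.23, and MT-ATP8 stood at 0.05. Over the same step all 6 tested pluripotency genes fell, all 7 neural progenitor genes rose, 69 of 83 tested ribosomal protein genes rose and 6 fell, and 7 of 10 cell death and p53 genes fell. Their part in the mitochondrial result was not tested. With libraries scaled to the TPM outside mitochondrial and ribosomal protein genes, 11 mRNAs were called lower, the call of MT-ND1 being lost (-0.24, limma adjusted p = 0.0523). In untreated cells alone (D4 CT0.0 against D0 ESC) 11 mRNAs were lower, where 16.3% of tested genes were called lower. There MT-CO1 fell by 0.26 and MT-CO2 by 0.91, while MT-ND1 (-0.06) and MT-ATP8 (-0.29) did not pass.

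**Figure D3:**
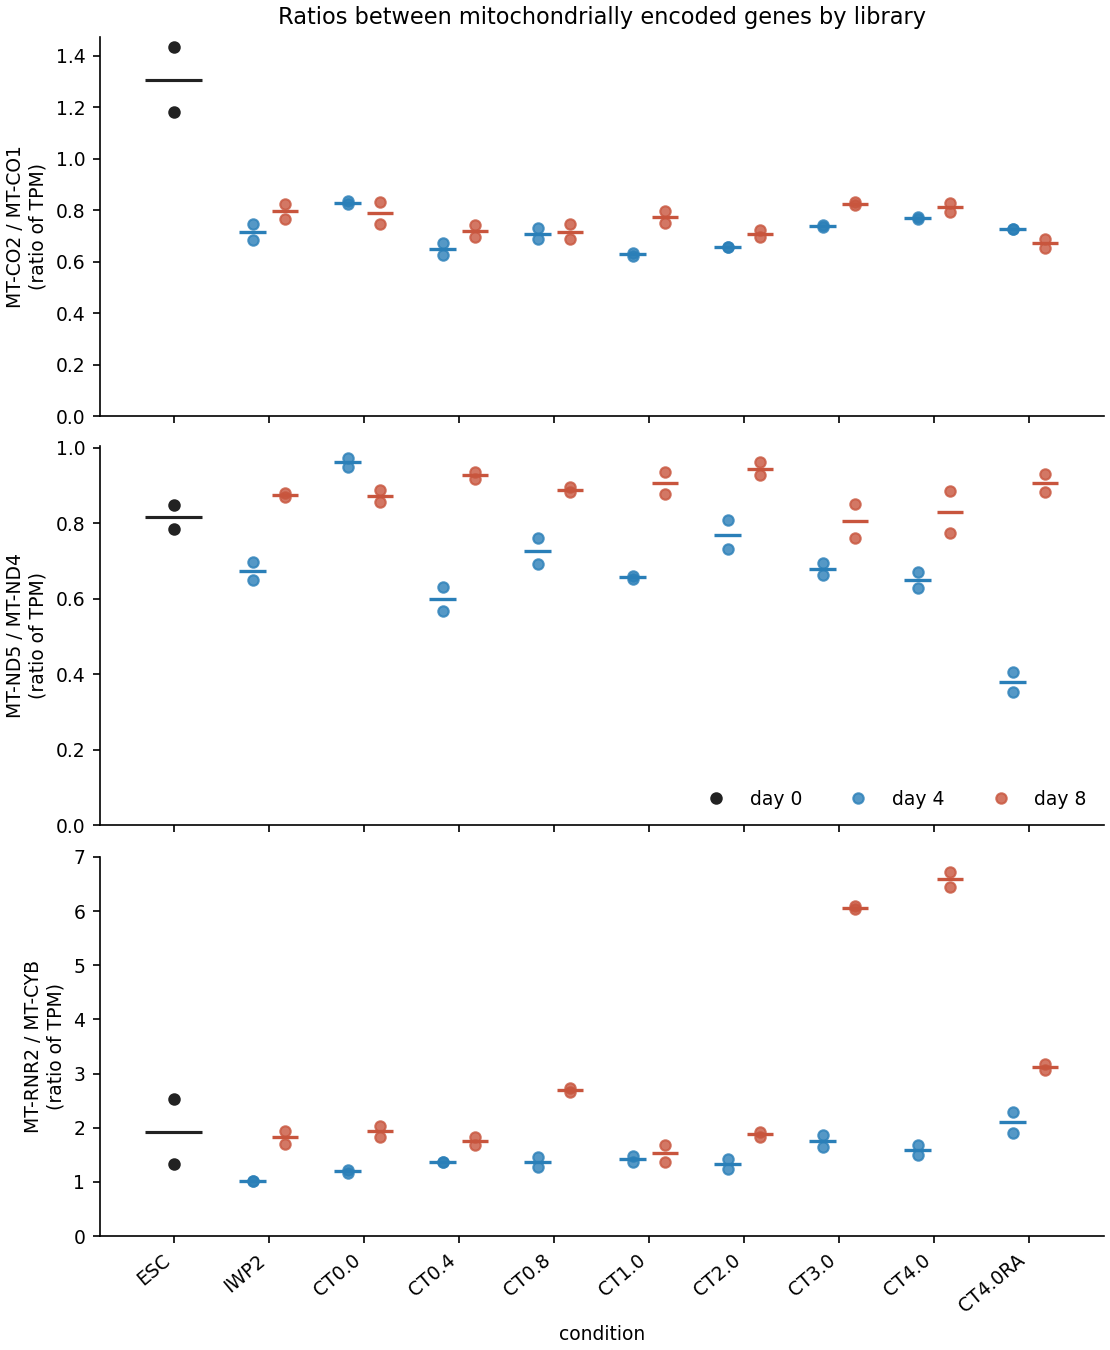
Ratios of TPM between pairs of mitochondrial genes by library (points) and their group means (short lines): MT-CO2 to MT-CO1 (top), MT-ND5 to MT-ND4 (middle) and MT-RNR2 to MT-CYB (bottom), by culture condition. MT-CO2 to MT-CO1 is above 1 only in D0 ESC, MT-ND5 to MT-ND4 is lowest in D4 CT4.0RA (0.407 and 0.352), and MT-RNR2 to MT-CYB is highest in D8 CT3.0 and D8 CT4.0 (6.04 to 6.72).

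From day 4 to day 8, averaged over the 9 conditions, the genes separated into those that fell and those that rose. Of the 13 mRNAs, 9 were lower and 2 higher, where 43.5% of tested genes were called, 17.6% as lower and 25.9% as higher. The median log2 difference of the 13 was -0.19, against 0.05 over all tested genes. MT-CYB fell most, from a day 4 median of 2269 TPM (1932 to 2598) to a day 8 median of 1818 (1050 to 2377), with a log2 difference of -0.46 ± 0.03 (limma adjusted p = 4.4e-11). The ranges overlapped. MT-ATP8 fell by 0.40, MT-CO3 by 0.36 and MT-ATP6 by 0.32. The 2 that rose were MT-ND5 (0.36 ± 0.02, adjusted p = 7.6e-12), from a median of 1456 to 1963 TPM, and MT-ND6 (0.35 ± 0.03, adjusted p = 6.9e-10), from 1675 to 2319 TPM. MT-ND4L (-0.07) and MT-ND4 (-0.06) did not pass, although MT-ND4 did in 4 of the fits that left out 1 library (-0.08 to -0.07). MT-RNR2 (0.42 ± 0.04), MT-RNR1 (0.27 ± 0.04) and MT-TP (0.40 ± 0.05) rose, with limma adjusted p-values of 5.6e-09, 2.8e-06 and 4.3e-07. Over the same step 7 of 7 neuron markers and 7 of 10 cell death and p53 genes rose, 5 of 7 neural progenitor markers rose and 1 fell, and of 83 ribosomal protein genes 14 rose and 27 fell. Their part was not tested.

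That mean covered conditions that differed in what moved. In untreated cells MT-CO1 (0.24) and MT-ND3 (0.38) rose and no mRNA fell, where 11.0% of tested genes were called higher. In IWP2, 5 mRNAs rose and none fell (11.2% of tested genes called higher), with MT-ND4L at 0.74, MT-ND5 at 0.72 and MT-ND6 at 0.71. MT-ND5 and MT-ND6 were the 2 mRNAs that rose at CT0.4 (0.72 and 0.73), CT0.8 (0.37 and 0.35), CT1.0 (0.64 and 0.70) and CT2.0 (0.39 and 0.43), where 22.2%, 11.0%, 15.5% and 5.77% of tested genes were called higher. Each of these 8 calls held under both other scalings of the libraries. MT-ND5 and MT-ND6 need not be separate signals, as set out below. The mRNAs that fell at these doses were MT-ND2 at CT0.4 (-0.42), MT-CO3 (-0.25) and MT-CYB (-0.40) at CT0.8, MT-CO1 at CT1.0 (-0.40), and MT-CO1 (-0.30), MT-CO3 (-0.24) and MT-CYB (-0.31) at CT2.0. Of all tested genes 6.29%, 8.50%, 3.22% and 3.70% were called lower there.

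At the higher doses most mRNAs fell. At CT3.0, 8 fell and none rose (17.4% of tested genes called lower), and at CT4.0, 10 fell and none rose (16.9% called lower). The largest falls at CT4.0 were in MT-CYB, from 2598 and 2474 TPM to 1140 and 1050 (log2 difference -1.21 ± 0.09, limma adjusted p = 5.0e-09), and in MT-ATP8 (-1.03). In CT4.0RA 11 fell and MT-ND5 rose by 0.21 (11.0% called lower). There MT-ATP6 went from 4611 and 4164 TPM to 2161 and 1959 (-1.09 ± 0.10, adjusted p = 3.2e-08), and MT-ND4 from 3497 and 3566 to 1754 and 1651 (-1.05 ± 0.08, adjusted p = 1.2e-09). For these 3 genes the libraries of the 2 days did not overlap. Scaling by median-of-ratios gave 2 higher and 5 lower at CT3.0, 1 and 7 at CT4.0, 2 and 11 in CT4.0RA, 2 and 7 at CT0.4, and 0 and 1 in untreated cells.

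CT dose was examined as a linear slope over the 7 CT groups of each day. At day 4 the slope was positive for 9 of the 13 mRNAs and negative for none, where 26.9% of tested genes were called and 12.4% were called higher. The largest was that of MT-ND4 (0.13 ± 0.02 log2 per µM, limma adjusted p = 3.9e-07), whose libraries read 2060 and 2274 TPM at CT0.0 and 3072 and 2876 at CT4.0. MT-ND4L (0.12), MT-ND6 and MT-ND3 (both 0.11) followed, and the complex IV genes rose by 0.05 to 0.07 per µM. MT-ND1 and MT-ND2 (0.00 each), MT-CYB and MT-ATP8 (0.04 each) did not pass, although MT-CYB did without replicate 2 of D4 CT2.0 (0.05). MT-ATP6 (0.05, adjusted p = 0.0445) lost its call in 11 of the 14 fits that left out 1 library. MT-RNR1 (0.16), MT-RNR2 (0.14) and MT-TP (0.29) rose with dose. Most of these slopes rest on the higher doses. Over doses of 0.0 to 2.0 µM, a range chosen after the data were seen, MT-CO1 (0.16) and MT-TP (0.26) were called higher and MT-ND1 (-0.19), MT-ND2 (-0.14) and MT-ND5 (-0.11) lower, whereas MT-ND4 (-0.05), MT-RNR1 (0.08) and MT-RNR2 (0.06) did not pass. Neural progenitor markers fell with dose at day 4 in 7 of 7 genes, and their part was not tested.

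Single doses at day 4 were each compared with untreated cells. MT-CO1 was higher than in untreated cells at every dose, by 0.21 (CT0.8) to 0.39 (CT1.0) on the log2 scale, with every dose called under each scaling. At CT4.0, 6 mRNAs were higher and none lower (8.69% of tested genes called higher), namely MT-CO1, MT-CO2, MT-CO3, MT-ND3, MT-ND4L and MT-ND4, while MT-ND5 stood at -0.11 and MT-ND6 at -0.02. At CT1.0, CT2.0 and CT3.0 the deposited TPM gave 1 higher and 3 lower, 1 and 4, and 3 and 2, where 3.62%, 5.27% and 7.81% of tested genes were called higher and 18.8%, 16.0% and 15.0% lower. Median-of-ratios scaling gave 4 and 2, 3 and 1, and 5 and 0. At CT0.4 and CT0.8 the deposited TPM gave 1 higher and 4 lower, and 1 and 2. Of tested genes 9.57% and 7.25% were called lower there, and median-of-ratios scaling gave 2 and 2, and 1 and 2. These comparisons share the D4 CT0.0 libraries.

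At day 8 the rRNAs and the mRNAs moved apart with CT dose. MT-RNR2 stood at 3912 and 3895 TPM in D8 CT0.0, at 6920 and 6413 in CT3.0 and at 7349 and 7060 in CT4.0. No library of the 2 highest doses overlapped those of the 5 lower doses, whose highest value was 4707 TPM. Its slope was 0.26 ± 0.02 log2 per µM (limma adjusted p = 1.6e-09), and that of MT-RNR1 was 0.22 ± 0.02 (adjusted p = 1.9e-08). MT-TP rose from 583 and 633 TPM at CT0.0 to 1692 and 1848 at CT3.0 and 2035 and 2084 at CT4.0, with a slope of 0.52 ± 0.03 (adjusted p = 7.4e-13). It was not in order at the lower doses, with 445 and 385 TPM at CT0.4 and 897 and 981 at CT0.8. MT-RNR1, MT-RNR2 and MT-TP rose with dose at day 8 under each scaling of the libraries that was tried.

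Of the 13 mRNAs, 8 fell with dose at day 8 and none rose, where 48.3% of tested genes were called and 38.3% were called lower. Their median slope was -0.10, and that of all tested genes was -0.08. MT-CYB was at 1918 and 2122 TPM in D8 CT0.0 and at 1135 and 1063 in CT3.0 and 1140 and 1050 in CT4.0, below every library of the lower doses (slope -0.25 ± 0.02, limma adjusted p = 1.4e-10). MT-ND1 was at 3728 and 4209 TPM in CT0.0, 2104 and 1919 in CT3.0 and 2286 and 2017 in CT4.0 (slope -0.22 ± 0.02, adjusted p = 1.1e-07). MT-ATP6 (-0.16), MT-CO3 (-0.15), MT-ATP8 (-0.14), MT-ND2 (-0.11), MT-CO1 (-0.10) and MT-CO2 (-0.07) also fell, and MT-ND3, MT-ND4L, MT-ND4, MT-ND5 and MT-ND6 lay between -0.03 and 0.04 and did not pass.

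The direction of the middle group of mRNAs depends on scaling. With median-of-ratios scaling, 2 mRNAs fell with dose, MT-ND1 (-0.10) and MT-CYB (-0.13), and 6 rose, by 0.05 (MT-CO2) to 0.15 (MT-ND4L). With libraries scaled to the TPM outside mitochondrial and ribosomal protein genes, 6 fell and 4 rose. No share of all tested genes is given for either scaling, so these counts cannot be set against one. MT-ND1 and MT-CYB were the only mRNAs called lower under the deposited and both other scalings, and none was called higher under all of them. The median over all tested genes was -0.28 in D8 CT3.0 and -0.27 in D8 CT4.0 against D8 CT0.0 as deposited, and 0.00 for each after median-of-ratios scaling. As deposited, the log2 differences from D8 CT0.0 in these comparisons were -0.98 and -0.88 for MT-ND1 and -0.88 in each for MT-CYB. Both genes thus lay below those medians. MT-ND6 stood at 0.00 in each, above them. As single doses, CT0.4 and CT0.8 had 3 and 5, and CT1.0 and CT2.0 had 2 and 5, mRNAs lower than untreated cells and none higher, where 6.21%, 11.4%, 8.17% and 14.8% of tested genes were called lower. CT3.0 had 10 lower and CT4.0 had 7, where 30.2% and 29.3% were called lower, and median-of-ratios scaling gave 3 higher and 3 lower, and 3 and 4.

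The ratio of MT-RNR2 to MT-CYB needs no scaling. It was 6.10 and 6.04 in D8 CT3.0 and 6.45 and 6.72 in D8 CT4.0. The other conditions of day 8 apart from CT4.0RA lay between 1.37 and 2.73, and day 4 libraries between 1.01 and 2.30. The 2 D0 ESC libraries stood at 2.54 and 1.33, a wide gap. Per 100 TPM of mitochondrial mRNA there were 13.3 TPM of rRNA in D8 CT3.0 and 14.1 in D8 CT4.0, against 10.1 in D8 CT4.0RA, 5.60 to 8.18 in the other day 8 groups and 4.34 to 6.37 at day 4 by group. The 2 D0 ESC libraries were at 8.75 and 5.10. Over doses of 0.0 to 2.0 µM at day 8 the rRNA slopes were negative (MT-RNR1 -0.07, MT-RNR2 -0.08), and did not pass. MT-CYB (-0.05), MT-ND1 (-0.05) and MT-TP (0.13) did not pass over those doses either, while MT-CO1 (-0.09) and MT-CO2 (-0.14) were called lower, so the slopes of the first 5 genes rest on CT3.0 and CT4.0.

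The slopes of the 2 days differed from each other for 12 of the 13 mRNAs (32.3% of tested genes called), and for MT-RNR2 and MT-TP. Under median-of-ratios scaling they differed for 4 mRNAs. The median difference, day 8 less day 4, was -0.14 for the 13 mRNAs and -0.08 over all tested genes. MT-RNR1 did not pass as deposited (0.06) but was called under both other scalings (0.17 and 0.11).

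Other measures moved with the same doses at day 8, where 48.3% of tested genes were called and 38.3% were called lower. Ribosomal protein genes rose with dose in 78 of 83 tested cases. Neural progenitor markers fell in 7 of 7, from a sum of 1494 TPM in CT0.0 to 327 in CT3.0 and 268 in CT4.0. Of 10 genes of cell death and the p53 response, 7 rose with dose and 1 fell, and their sum was 183 TPM in CT0.0, 371 in CT3.0 and 412 in CT4.0. CDKN1A, the p53-induced cell cycle inhibitor, was at 9.95 TPM in D8 CT0.0 and 139 in D8 CT4.0. RNAs made without poly(A) tails, summed over 9 symbols, were at 4753 TPM in CT0.0, 1719 in CT3.0 and 3839 in CT4.0. An entry of RN7SL2 was at 2893 TPM in CT0.0 and 2474 in CT4.0, so a single RNA carried much of the sum there. RN7SK was at 102 and 51.2 TPM. Of the 11 tested table entries of these symbols 1 rose with dose and 1 fell. Of 6 neural crest markers 4 fell with dose, of 4 tested mesoderm markers 1 rose and 2 fell, of 7 neuron markers 3 rose and 3 fell, of 4 tested surface ectoderm markers 2 fell, and of 2 tested endoderm markers 1 rose. Some of these counts of markers that fell, such as those of the neuron and mesoderm markers, lie near the share of all tested genes called lower. The mesoderm sum was 2.24 TPM in CT0.0, 11.1 in CT3.0 and 23.8 in CT4.0. T (brachyury), a mesoderm marker, was at 0 TPM in CT0.0 and 22.2 in CT4.0. The endoderm sum was 30.05 TPM in CT0.0, 46.3 in CT3.0 and 50.6 in CT4.0. Between CT0.0 and CT4.0 the neural crest sum went from 195 to 20.03 TPM. The surface ectoderm sum went from 174 to 98.2 TPM and the neuron sum from 251 to 189. None of the cell type or cell death markers was at 0 in all libraries. The part of the other measures in the mitochondrial result was not tested.

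**Figure D4:**
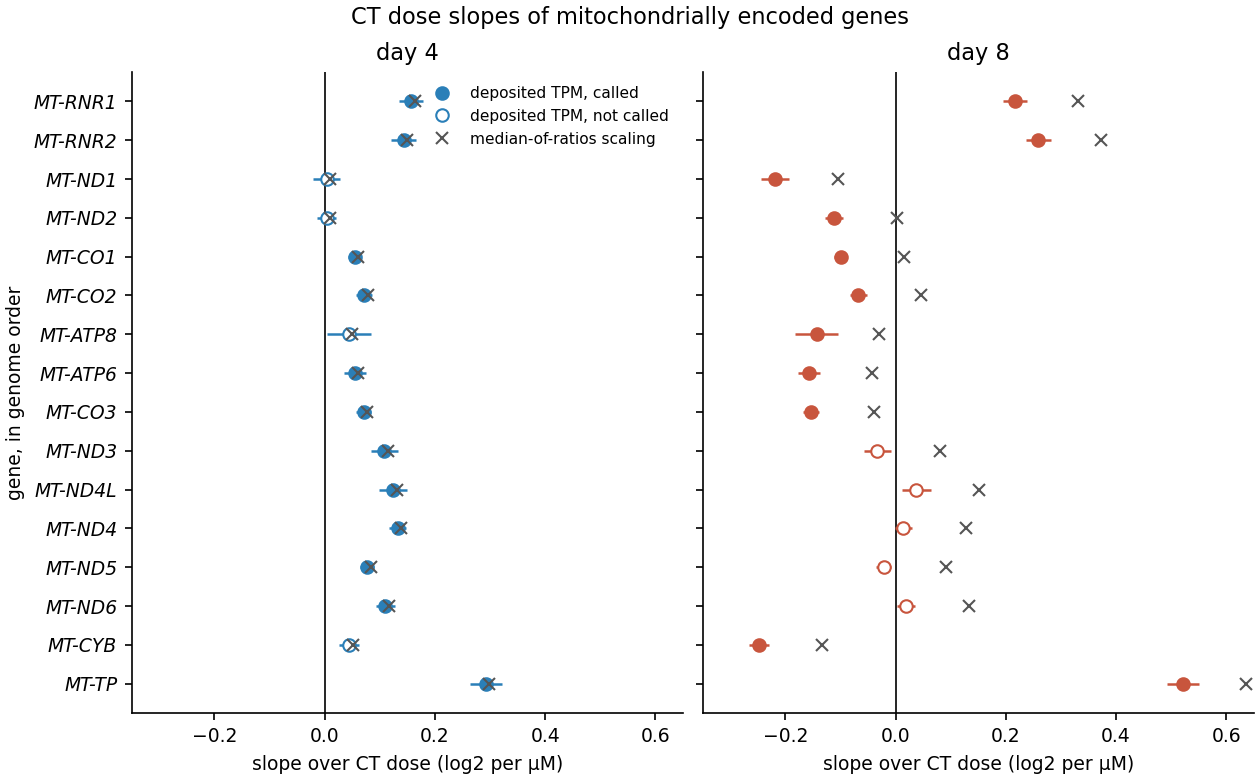
Slope of log2(TPM + 1) over CT dose (log2 per µM) at day 4 (left) and day 8 (right) for 13 mRNA genes, 2 rRNA genes and MT-TP. Circles are deposited TPM with SE bars, filled where the adjusted p is under 0.05, and crosses are median-of-ratios scaling. Scaling hardly moves day 4 but moves all day 8 slopes upward, so that MT-CO2 turns from -0.07 to 0.05 while MT-CYB (-0.13) and MT-TP (0.64) keep their sign.

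With IWP2, 2 mitochondrial genes were called at day 4 and none at day 8. Against untreated cells at day 4, MT-ND5 and MT-ND6 were lower and the other 11 mRNAs, both rRNAs and the tested tRNAs did not pass, where 0.695% of tested genes were called and 0.393% were called lower. MT-ND5 read 1408 and 1468 TPM in D4 IWP2 and 2007 and 2158 in D4 CT0.0 (log2 difference -0.53 ± 0.07, limma adjusted p = 1.3e-04). MT-ND6 read 1601 and 1651 against 2399 and 2448 (-0.58 ± 0.09, adjusted p = 9.2e-04). The libraries did not overlap for either gene, and both calls held when any 1 of the 4 libraries was left out. At an unadjusted p under 0.05, 5 mRNAs were lower and 1 higher. The lowest difference was that of MT-ATP8, which read 1265 and 1130 TPM against 1882 and 1719 (-0.59 ± 0.20) and did not pass (limma adjusted p = 0.212). At day 8 limma called none of the 13 mRNAs (0.780% of tested genes called), and at an unadjusted p under 0.05, 1 was higher and none lower. MT-ND5 then stood at 0.12 ± 0.07 and MT-ND6 at 0.19 ± 0.09. The difference between the days was itself called for both genes, at 0.65 for MT-ND5 and 0.77 for MT-ND6 (limma adjusted p = 8.3e-04 and 0.0023, 0.337% of tested genes called), and for no other mRNA. Of 36 tested markers of pluripotent cells and 6 other cell types, limma called none under IWP2 at day 4 (at an unadjusted p under 0.05, 2 each way) and 2 at day 8. MT-RNR1 did not pass at day 8, but did without replicate 1 of D8 CT0.0 (-0.59).

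D4 CT0.0 was itself the day 4 group in which MT-ND5 was highest relative to MT-ND4, the next mRNA gene upstream on its strand. The ratio of MT-ND5 to MT-ND4 was 0.974 and 0.949 in D4 CT0.0, and 0.808 in the next highest day 4 library. The lowest were the D4 CT4.0RA libraries at 0.407 and 0.352. All 18 day 8 libraries lay between 0.760 and 0.962, and the D0 ESC libraries at 0.786 and 0.848. Against D4 CT0.0, MT-ND5 was lower at CT0.4 (-0.82), CT0.8 (-0.47), CT1.0 (-0.68), CT2.0 (-0.45) and CT3.0 (-0.24), and MT-ND6 at CT0.4 (-0.93), CT0.8 (-0.47), CT1.0 (-0.72) and CT2.0 (-0.41). These comparisons share the D4 CT0.0 libraries, and 9.57%, 7.25%, 18.8%, 16.0% and 15.0% of tested genes were called lower in them, in order of dose. Under both other scalings the calls at CT0.4, CT0.8 and CT1.0 held for each gene, whereas MT-ND6 at CT2.0 (-0.19 by median-of-ratios) and MT-ND5 at CT3.0 (-0.10) did not pass.

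MT-ND5 and MT-ND6 stayed in a nearly fixed proportion. MT-ND6, at chrM:14149-14673 on the minus strand, was between 1.03 and 1.28 times MT-ND5 in all 38 libraries, while MT-ND5 ranged from 1148 to 2822 TPM and MT-ND6 from 1188 to 3148. The labels do not say whether the libraries keep the strand of the RNA. Without strand, reads from MT-ND6 and reads from RNA of the other strand over the same bases cannot be told apart. The level of MT-ND6 is uncertain for that reason. Where both genes were called, in any comparison given here, the calls need not be separate signals.

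**Figure D5:**
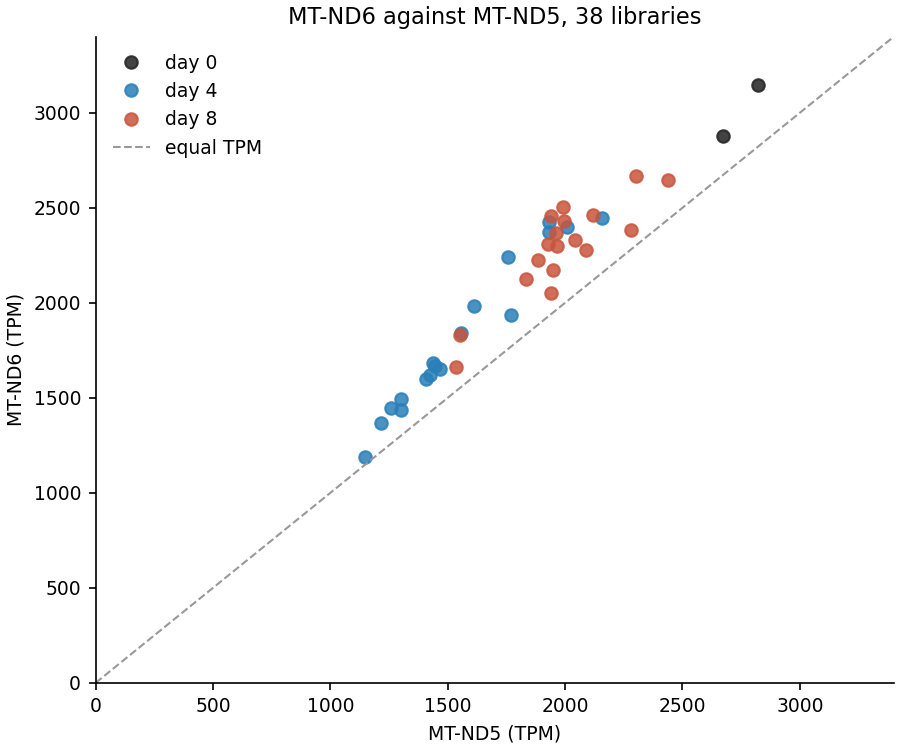
TPM of MT-ND6 (vertical axis) against TPM of MT-ND5 (horizontal axis) in 38 libraries, coloured by day; the dashed line marks equal TPM. All libraries lie just above the line, at ratios of 1.03 to 1.28, with the day 4 libraries reaching lowest (1148 TPM of MT-ND5 and 1188 of MT-ND6).

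Retinoic acid, added to CT at 4.0 µM, was compared with CT4.0 alone. At day 4 MT-ND5 and MT-ND6 were lower and MT-ND2, MT-CO1 and MT-ND4 higher, where 21.0% of tested genes were called, 17.4% as lower and 3.54% as higher. MT-ND5 went from 1930 and 1932 TPM to 1423 and 1256 (log2 difference -0.53 ± 0.07, limma adjusted p = 2.6e-06), and MT-ND6 from 2371 and 2424 to 1618 and 1445 (-0.65 ± 0.09, adjusted p = 5.1e-06). MT-CO1 went from 16812 and 15571 TPM to 18935 and 19957 (0.26 ± 0.06, adjusted p = 0.00206). MT-ND2 was at 0.35 and MT-ND4 at 0.25, and MT-RNR2 was higher by 0.34 (adjusted p = 0.0362). Without replicate 2 of D4 CT4.0, 2 mRNAs were called, MT-ND5 and MT-ND6, and MT-RNR2 stood at 0.22. The call of MT-ND4 was lost in 3 of the 4 fits that left out 1 library (0.20 to 0.26), and that of MT-RNR2 was also lost without replicate 2 of CT4.0RA (0.26). The median over all tested genes was -0.18 in this comparison, and 0.00 after median-of-ratios scaling. With that scaling 7 mRNAs were higher and 2 lower, and with scaling to TPM outside mitochondrial and ribosomal protein genes 6 and 2. Ribosomal protein genes were higher in 74 of 83 tested cases, and 4 of 7 neural progenitor markers were higher, with sums of 316 and 676 TPM. Their part was not tested.

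At day 8 retinoic acid went with lower levels of MT-RNR2 and of the genes from MT-ND4L to MT-ND6. MT-RNR2 read 7349 and 7060 TPM in CT4.0 and 4164 and 4046 in CT4.0RA (log2 difference -0.81 ± 0.11, limma adjusted p = 8.4e-06), while MT-RNR1 read 1009 and 888 against 942 and 922 (-0.02 ± 0.11). The ratio of MT-RNR2 to MT-RNR1 was lowest of all groups in D8 CT4.0RA, at 4.40 against 8.19 in D8 IWP2, the highest. MT-TP fell by 0.69 (± 0.15, adjusted p = 8.5e-04). Of the 13 mRNAs, 5 were lower and 1 higher, where 25.4% of tested genes were called and 15.3% were called lower. MT-ND4 (-0.48), MT-ND4L (-0.42), MT-ND6 (-0.42), MT-ND5 (-0.35) and MT-CO2 (-0.34) were lower. MT-CYB was higher by 0.26 (adjusted p = 0.0436), a call lost without any 1 of the 4 libraries, and that of MT-ND4L was lost in 3 of those 4 fits (-0.45 to -0.36). MT-ATP6 did not pass (-0.23), but did without replicate 2 of D8 CT4.0 (-0.38). With median-of-ratios scaling 3 mRNAs were lower and 1 higher. With scaling to TPM outside mitochondrial and ribosomal protein genes, 2 were lower (MT-ND4 and MT-ND6) and 2 higher (MT-ND1 and MT-CYB). The difference between the days in the RA effect was called for MT-RNR2 and 4 mRNAs (15.2% of tested genes called). The 10 cell death and p53 genes summed to 412 TPM in CT4.0 and 144 in CT4.0RA, with 7 lower and none higher, and the neural progenitor sum was 268 and 806 TPM. Of 83 ribosomal protein genes 65 were higher and 4 lower, and of 7 neuron markers, whose sums were 189 and 380 TPM, 5 were higher and 1 lower, where 10.1% of tested genes were called higher. Their part was not tested.

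Differences among the 9 conditions of a day, in any pattern, passed an F test for 13 of 13 mRNAs at day 4 and at day 8, where 46.4% and 57.9% of tested genes passed. At day 4, 12 passed without the filter on low values and 11 without the trend, and at day 8, 11 passed with median-of-ratios scaling and 12 with scaling to TPM outside mitochondrial and ribosomal protein genes. MT-RNR1, MT-RNR2 and MT-TP passed on both days.

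The tRNA genes fell into classes by level and strand. Of 14 genes on the plus strand, none was above 0 in more than 9 of 38 libraries, 38 of 532 values (7.14%) were above 0, and the highest mean was 0.772 TPM. Of 8 genes on the minus strand, all were above 0 in at least 15 libraries, and 242 of 304 values (79.6%) were above 0. MT-TP was above 0 in all 38, at 385 to 2084 TPM, and made up 83.7% to 98.4% of tRNA TPM in each library. The next were MT-TY, MT-TC, MT-TN and MT-TA, the tRNA genes for tyrosine, cysteine, asparagine and alanine, which lie together at chrM:5587-5891, with means of 19.2, 16.0, 9.41 and 5.18 TPM and a highest single value of 53.4 TPM (MT-TC). MT-TG was listed at 0 in all libraries. A 0 in TPM can be a failed estimate and the genes are shorter than the reads. MT-TA passed the day 8 F test (adjusted p = 0.0424). MT-TQ was lower at day 4 than at day 0 (-2.22 ± 0.82, adjusted p = 0.0339), but its day 0 libraries read 2.78 and 10.7 TPM, the median day 4 library was at 0, and the call was lost without D0 ESC replicate 2 (-1.40). Poly(A) selection and size selection capture mature tRNA poorly, and without known strand, MT-TP reads cannot be told apart from RNA of the plus strand that runs past MT-CYB.

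Copies of mitochondrial DNA in the nuclear genome could take or lend reads. The share of a gene's 31-base words that also occur in another annotated transcript was 66.7% for MT-CO1, 62.8% for MT-ATP6 and 56.9% for MT-ND2. It was 50.5% for MT-CO2, 45.0% for MT-CO3 and 41.2% for MT-ATP8. MT-RNR2 stood at 31.7%, MT-ND6 at 30.7% and MT-ND1 at 28.2%. MT-ND4, MT-ND4L and MT-ND5 stood at 21.2%, 16.1% and 15.1%. MT-CYB stood at 4.95% and MT-ND3 at 3.48%, and MT-RNR1 and MT-TP had none. For MT-RNR2, whose ratios to MT-CYB and MT-RNR1 are given above, the transcript sharing most was MTRNR2L12, with 22.4%. How reads were divided between such copies is uncertain for the genes that share words. The 405 nuclear copies in the table summed to between 77.7 and 237 TPM per library, at most 0.224% of mitochondrial mRNA TPM. MTATP6P1, a copy of MT-ATP6 on chromosome 1 (633696 to 634376), carried most of it, with a mean of 103 TPM.

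The nuclear genes that build and serve the same complexes were read beside them. Between day 0 and day 4, 22.2% of all tested genes were called lower and 17.5% higher, and some of the counts that follow lie near those shares, such as those of complex III and of the aminoacyl-tRNA synthetases. From day 0 to day 4, 15 of 37 tested nuclear complex I genes fell and 3 rose (NDUFS5 -0.71, NDUFA6 0.57). Of complex III 3 of 9 fell, led by cytochrome c1, CYC1 (-0.65), and none rose. Of complex IV 8 of 11 fell, led by COX5A (-0.75), and none rose, whereas of complex V 6 of 15 fell and 2 rose (ATP5G1 -0.75, ATP5G2 0.67). Of 8 genes for mitochondrial transcription 3 rose, MTERF2 (0.56) and MTERF3 (0.46) among them, and 2 fell. Those 2 were POLRMT and TFB2M. POLRMT, the mitochondrial RNA polymerase, fell by 0.47 (± 0.07, limma adjusted p = 3.0e-06), and its cofactor TFB2M by 0.31. TFAM, which packages mitochondrial DNA and helps start transcription, did not pass (0.06 ± 0.10). LRPPRC and SLIRP, partners that stabilise mitochondrial mRNAs, fell by 0.43 and 0.49. Of 17 genes for mitochondrial RNA processing and decay 10 fell, and of 78 for the mitochondrial ribosome 42 fell and 7 rose. Of 9 genes for mitochondrial DNA replication and packaging 5 fell and none rose, and of 17 mitochondrial aminoacyl-tRNA synthetases 6 fell and 5 rose. From day 4 to day 8 POLRMT rose by 0.17, TFB2M fell by 0.54, TFAM fell by 0.43 and SLIRP by 0.43. TRMT10C and FASTKD5, which take part in cutting mitochondrial RNA, fell by 0.62 and 0.74. Of the 78 genes for the mitochondrial ribosome 57 fell and 9 rose. Over that step 17.6% of all tested genes were called lower and 25.9% higher.

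With CT dose at day 4, 40 of 78 genes for the mitochondrial ribosome rose and 2 fell, and 16 of 37 nuclear complex I genes rose and 3 fell, where 12.4% of tested genes were called higher. At day 8, 20 of the 37 fell and 8 rose, where 38.3% of tested genes were called lower. Of the 78 mitochondrial ribosome genes 23 rose and 27 fell, and LRPPRC rose by 0.20 per µM and TFB2M fell by 0.20. With retinoic acid at day 8, 25 of the 37 nuclear complex I genes and 7 of 11 of complex IV fell and none rose. Of all tested genes 15.3% were called lower there. The median differences were -0.49 and -0.62, against 0.00 over all tested genes. Under IWP2, limma called none of 225 nuclear genes of 12 such lists on either day. Over all tested genes 0.695% were called at day 4 and 0.780% at day 8. At such shares, lists of this size would hold few or no calls. At an unadjusted p under 0.05, 10 were higher and 12 lower at day 4, and 23 and 4 at day 8. The share of all tested genes at that threshold is not given.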

How the data were processed

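The deposited table holds TPM per gene, which the authors made from poly(A) RNA reads with Salmon 0.8.2 on hg38 after base calling with CASAVA 1.7, per the submitters' processing notes. The sources at hand state neither the settings and annotation nor read counts, so depth and counting intervals cannot be given. No value column was left unused.

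Genes at 1 TPM or more in at least 2 libraries were tested with limma 3.58.1 (R 4.3.3) on log2(TPM + 1), with 19 group means, 19 residual degrees of freedom and a mean-variance trend, in 33 contrasts and 2 F tests. A call is a Benjamini-Hochberg adjusted p under 0.05 over all 28221 genes. Shares of all tested genes called are those of the deposited TPM, and none is given for the other scalings. The procedure was tested on simulated data. Shares and ratios are descriptions without a test. Coordinates and sequences come from GENCODE release 29, with no genome. All 13 mRNA and both rRNA genes are named, with the tRNA genes that were called and those of highest mean level; from each nuclear list, the largest changes and a few fixed regulators. The members and lists were chosen with earlier results of these data known. Alternatives were another pseudocount, filters, scalings, a replicate block, no trend, each library left out and, added after the data were seen, doses up to 2.0 µM.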

Additional observations from a re-analysis of the deposited data

Results flagged for a closer look

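Each of the following differs between day 4 and day 8 by a test of the difference itself (limma, Benjamini-Hochberg adjusted p under 0.05). Values are day 8 less day 4 on the log2 scale.

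For the CT slope (log2 per µM), the largest were MT-CYB at -0.29 (adjusted p = 1.8e-08), MT-CO3 at -0.22 (adjusted p = 1.1e-08), MT-ND1 at -0.22 (adjusted p = 3.0e-05) and MT-ATP6 at -0.21. MT-ATP8 was at -0.19, MT-CO1 at -0.15, MT-CO2 and MT-ND3 at -0.14 each, MT-ND4 at -0.12, MT-ND2 at -0.11, MT-ND5 at -0.10 and MT-ND6 at -0.091. MT-TP was at 0.23 and MT-RNR2 at 0.12. The median over all tested genes was -0.08, so the smaller of these mRNA values lie near it. With median-of-ratios scaling 4 of these 12 mRNAs were called, MT-ND1, MT-ATP6, MT-CO3 and MT-CYB.

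For IWP2 against untreated cells, MT-ND5 was at 0.65 and MT-ND6 at 0.77. For CT4.0RA against CT4.0, MT-RNR2 was at -1.15 (adjusted p = 2.9e-05), MT-TP at -1.03, MT-ND4 at -0.73, MT-ND4L at -0.64, MT-CO2 at -0.53 and MT-CO1 at -0.34. The contrasts of a day share their control libraries, and what sets the days apart was not tested.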

How the results depend on the processing

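TPM keeps no depth, so what depth limits could not be examined, and with 2 libraries a group each value rests on a single pair. A pseudocount of 0.1, a 10 TPM filter and the replicate block left the direction and side of the threshold of all 168 single-gene results as they were. Omitting the filter or the trend lost 4 calls each. Median-of-ratios scaling gained 11 calls, lost 5 with the direction kept and turned 3 directions, in the day 8 slopes of MT-ND2 (0.0023) and MT-CO1 (0.014), whose calls were lost too, and of MT-CO2 (0.046), called higher; scaling outside mitochondrial and ribosomal protein genes gained 10 and lost 6. Median-of-ratios scaling called 8 mRNAs in the day 8 slope, 6 of them higher, against 8 lower as deposited, and 9 for RA at day 4, where the other scaling called 8 and the deposited values 5. Up to 2.0 µM, 4 mRNAs were called at day 4 and 2 at day 8, against 9 and 8 over all doses, and 7 slopes turned: at day 4 MT-ATP6 (-0.092), MT-ND4L (-0.076), MT-ND4 (-0.048), MT-ND5 (-0.11) and MT-ND6 (-0.071), at day 8 MT-RNR1 (-0.071) and MT-RNR2 (-0.077). Those slopes came from the same libraries but span fewer groups and a narrower range of doses. The cause was not tested. Leaving out 1 library gave 7 to 12 called mRNAs for day 4 against day 0 and 2 to 5 for RA at day 4, and MT-ATP8 against day 0 moved between -0.95 and 0.045. Without ribosomal protein genes the highest share was 1.62 times the lowest at day 4 and 1.23 times at day 8. Same-numbered libraries showed no common deviation over all tested genes (correlations of -0.04 to 0.04 over 171 pairs of groups). That measure weighs low and high genes alike, so it cannot decide whether the numbers pair libraries. The replicate block gave the same counts of calls, 12 for day 4 against day 0, 9 for the slope at day 4 and 8 at day 8.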
